A study of Mus musculus with 18 samples.

Results

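Genes that mark T cells and intraepithelial lymphocytes were followed in the ileum of mice that overexpress *Ppara* in the intestinal epithelium. The 10 genes were taken by name from the 55487 genes of the deposited tables: the CD3 chains *Cd3e*, *Cd3d* and *Cd3g*, the CD8 chains *Cd8a* and *Cd8b1*, the T cell receptor delta constant region *Trdc*, the integrin *Itgae*, the granzymes *Gzma* and *Gzmb*, and the chemokine *Ccl5*. Whole-thickness ileum of 18 mice on chow was sequenced, 1 library per mouse, with 6 mice in each of 3 genotypes. All animals were C57BL6/J littermates aged 8 to 13 weeks, carried the CAG-*Ppara*,-*EGFP* allele at *Col1a1*, and were given tamoxifen intraperitoneally at 100 mg/kg on 3 days with tissue taken 2 weeks later. Heterozygous and homozygous IEC-*Ppara* mice carried 1 or both copies of that allele together with *Villin-CreERT2*, in which the *Villin* promoter drives Cre in the intestinal epithelium. Control mice lacked *Villin-CreERT2*. Cre was therefore present in both IEC-*Ppara* groups and absent from every control, so that effects of the transgene and of Cre cannot be told apart here. There were 7 female and 11 male mice, with 3 females among the controls and 2 in each IEC-*Ppara* group.

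Intraepithelial lymphocytes are T cells that sit between the epithelial cells of the gut. The CD3 chains carry the signal of the T cell receptor, and CD8 is its coreceptor, either as a pair of alpha chains, a form typical of natural intraepithelial lymphocytes, or as an alpha and a beta chain, as on conventional cytotoxic T cells. Many intraepithelial lymphocytes bear a gamma delta receptor. They are held in the epithelium by the integrin alpha E (CD103, encoded by *Itgae*), which binds E-cadherin, and they store granzymes, the proteases of cytotoxic granules. *Ccl5* encodes a chemokine that cytotoxic T cells make. None of the 10 is unique to intraepithelial lymphocytes: T cells of the lamina propria and of lymphoid follicles carry the CD3 chains, natural killer cells carry granzymes, and some dendritic cells carry *Itgae*.

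In whole tissue, fewer T cells and less RNA per T cell cannot be told apart. Read totals were 38528522 to 50376371 per library. *Ppara* separated both IEC-*Ppara* groups from controls: the highest control had 47.4 CPM (counts scaled to the library total), heterozygous mice 107 to 196 CPM and homozygous mice 184 to 279 CPM. The IEC-*Ppara* groups overlapped, and *Ppara* was not called between them (log2 fold change 0.59 ± 0.17, adjusted p = 0.509). A set of 4 libraries (control 2 and 3, heterozygous 2 and homozygous 1) stood apart in B cell genes: the 12 genes of a B cell list summed to 108 to 661 CPM in these and to 14.3 to 25.7 CPM in the other 14. Smooth muscle genes also varied, with a 10-gene sum of 682 to 6140 CPM in controls, 852 to 4510 in heterozygous and 4157 to 9690 in homozygous mice. A fit with no filter on low levels and without the 4 B cell-rich libraries, chosen after the values were seen, is given beside several of the results.

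The genes lie in 7 places of the GRCm38 genome. *Cd3g* (chr9:44969572-44980431), *Cd3d* (chr9:44981786-44987339) and *Cd3e* (chr9:44998740-45009627) fill 40.1 kilobases of chromosome 9, where *Cd3g* and *Cd3d* are transcribed away from each other and their annotated ends are 1355 bases apart. *Cd8b1* (chr6:71322788-71337494) and *Cd8a* (chr6:71373427-71379173) are neighbours separated by 35.9 kilobases. The others are single genes: *Trdc* (chr14:54142851-54148868), *Itgae* (chr11:73090583-73147446), *Gzma* (chr13:113093825-113100981), *Gzmb* (chr14:56258838-56262260) and *Ccl5* (chr11:83525778-83530518). Exons of *Cd3e* overlap those of the antisense gene *Gm48719*, which did not exceed 0.202 CPM, and exons of *Trdc* overlap *Trdv5* and *Gm43434*, which did not exceed 0.126 and 0.0976 CPM.

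Promoter windows of 300 bases, from 250 before to 50 after the RefSeq start site, were found for 6 of the 10 genes (GRCm38.p6). Those of 2 CD3 chains and both granzymes are shown because these genes carry the comparisons that follow, as a CD3 chain that passed the filter on low levels and one that did not, and as the genes with the largest differences at high levels. Capitals mark matches, on either strand, to letters bound by factors known in T cells: RUNX (TGTGGT), the E-box (CACCTG), AP-1 (TGANTCA), STAT (TTCNNNGAA) and ETS (ACAGGAAG).
Cd3e (chr9:45009562-45009861, reverse strand): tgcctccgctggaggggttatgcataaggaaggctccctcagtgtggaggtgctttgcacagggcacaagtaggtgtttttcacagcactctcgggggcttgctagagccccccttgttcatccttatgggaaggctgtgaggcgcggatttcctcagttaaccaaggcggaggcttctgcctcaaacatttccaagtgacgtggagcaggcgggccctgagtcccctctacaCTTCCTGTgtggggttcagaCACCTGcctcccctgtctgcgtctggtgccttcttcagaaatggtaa
Cd3d (chr9:44981536-44981835, forward strand): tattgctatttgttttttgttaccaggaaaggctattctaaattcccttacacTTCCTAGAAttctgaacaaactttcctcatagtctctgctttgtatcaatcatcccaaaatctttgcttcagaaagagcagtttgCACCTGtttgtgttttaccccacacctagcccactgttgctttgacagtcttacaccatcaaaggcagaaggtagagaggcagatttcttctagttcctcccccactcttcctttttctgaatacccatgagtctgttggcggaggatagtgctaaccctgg
Gzma (chr13:113100932-113101231, reverse strand): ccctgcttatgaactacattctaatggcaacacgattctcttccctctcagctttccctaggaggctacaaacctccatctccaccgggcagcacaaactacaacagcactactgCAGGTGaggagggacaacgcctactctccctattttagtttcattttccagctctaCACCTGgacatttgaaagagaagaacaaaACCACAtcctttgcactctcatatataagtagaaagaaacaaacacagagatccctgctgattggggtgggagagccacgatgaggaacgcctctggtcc
Gzmb (chr14:56262285-56262584, reverse strand): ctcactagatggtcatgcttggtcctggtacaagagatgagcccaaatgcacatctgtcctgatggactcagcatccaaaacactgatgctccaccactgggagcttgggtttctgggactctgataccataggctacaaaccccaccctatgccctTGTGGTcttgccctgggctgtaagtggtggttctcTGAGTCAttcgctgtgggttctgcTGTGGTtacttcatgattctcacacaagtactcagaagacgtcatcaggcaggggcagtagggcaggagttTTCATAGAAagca
None of these matches overlaps another, and a window without a match says only that these letters are not in it. RUNX letters occur in both granzyme windows and in none of the other 4, against 16.8% of 32851 RefSeq windows of this length. E-box letters occur in *Cd3e*, *Cd3d*, *Cd3g* and *Gzma*, against 20.2% of all windows. The AP-1 match is in *Gzmb*, against 7.81% of all windows, the STAT letters are in *Cd3d* and *Gzmb*, against 8.30%, and the ETS letters are in *Cd3e*, against 3.58%. The *Cd8a* window held none of these. The letters bound by PPAR, as a half-site (AGGTCA) or as the direct repeat of it called DR1, were in none of the 6 windows and in 16.3% and 0.0396% of all windows. The cAMP response element (TGACGTCA, 1.79% of all windows) and the TATA box (TATAAA, 13.6%) were also in none of the 6.

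Levels between genes were compared per length, as FPKM, in which counts are scaled to both the library total and the exonic length. In controls the order of mean FPKM was *Gzma* (16.6 ± 9.41, SD, n = 6), *Ccl5* (12.8 ± 5.02), *Gzmb* (6.99 ± 4.60), *Itgae* (3.31 ± 0.859), *Cd8a* (1.82 ± 0.471), *Cd3g* (1.80 ± 0.541), *Cd3e* (1.41 ± 0.411), *Cd3d* (1.34 ± 0.843), *Cd8b1* (1.04 ± 0.938) and *Trdc* (0.723 ± 0.226). Secreted effector products thus lay above the receptor chains. Within the receptor chains neighbours in this order differed by less than either SD, except that *Cd8b1* and *Trdc* differed by more than the SD of *Trdc*. *Gzma* and *Ccl5* also differed by less than either SD. All 10 genes had reads in all 18 libraries, from 8 reads of *Cd8b1* in homozygous 5 to 1269 reads of *Gzma* in control 6.

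A filter of more than 3 CPM in at least 4 libraries kept 7 of the 10 genes among 13709 genes. *Cd3d*, *Cd8b1* and *Trdc* passed 3 CPM in only 2 controls each and in no IEC-*Ppara* library, so their differences come from the fit with no filter on 38803 genes. None of the 10 passed an adjusted p of 0.05 in edgeR's quasi-likelihood test in any comparison of genotypes, where 0.452% of all tested genes did between homozygous and control and 0.306% between heterozygous and control mice. At an unadjusted p under 0.05, lower in homozygous mice, stood 7 of 7 genes past the filter and 10 of 10 with no filter, against 3.37% and 4.12% of all genes. Without the 4 B cell-rich libraries and with no filter it was 6 of 10, against 2.13%. The same count for heterozygous mice was 6 of 7 and 8 of 10, against 2.18% and 3.05%, and 7 of 10 without the B cell-rich libraries, against 1.95%. The 7 genes past the filter had a median log2 fold change of -0.80 in homozygous and -0.70 in heterozygous mice, while the medians of all genes tested were 0.0050 and 0.0037. Members of a cell type are not independent of each other, and these counts were not tested as a set.

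Other tools differed from this. DESeq2 called *Cd3e* (adjusted p = 0.0371) and *Gzmb* (adjusted p = 0.0338) lower in homozygous mice, where it called 0.314% of all genes lower. It called none of the 7 genes past the filter in the heterozygous comparison, and limma-voom called none in either. No gene of the 10 separated the groups completely: 0 of 10 had every homozygous library below every control library, as 0.111% of all genes with a count did, and 0 of 10 had every heterozygous library below every control, as 0.0825% did. One control, number 4, was the lowest of the 6 controls for 9 of the 10 genes. Without it, *Cd8a* had a log2 fold change of -0.95 in homozygous mice with an adjusted p of 0.0425 in edgeR, where 0.0729% of all genes were called lower.

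**Figure D1:**
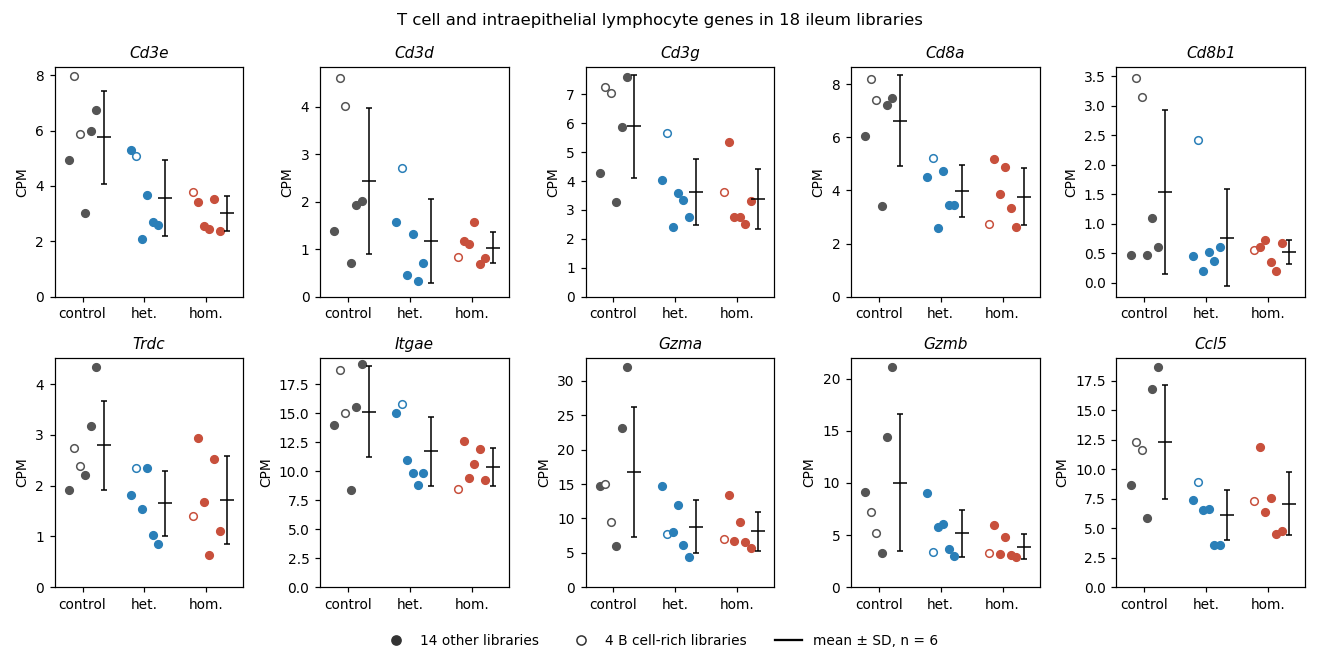
Level of each of the 10 genes in CPM (vertical axis) in the 6 libraries of each genotype, with the mean ± SD at the right of each group; open points are the 4 B cell-rich libraries. Most controls lie above most IEC-*Ppara* libraries, control 4 lies low in 9 of the 10 panels, and 3 of the 4 open points are the highest for *Cd8b1* and *Cd3d*.

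The epsilon chain *Cd3e* is common to all T cells. Its level was 3.04 CPM in the lowest control, 5.93 at the median and 7.98 in the highest. In heterozygous mice the lowest, median and highest were 2.07, 3.19 and 5.30 CPM, and in homozygous mice 2.38, 2.99 and 3.77 CPM. Of the 6 controls, 5 lay above every homozygous library and 4 above every heterozygous library, and control 4 lay within both groups. The log2 fold change was -0.92 ± 0.25 (SE) in homozygous mice (adjusted p = 0.182) and -0.66 ± 0.25 in heterozygous mice (adjusted p = 0.755).

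The gamma chain *Cd3g*, a partner of the epsilon chain in the receptor complex, had a similar range. It was 3.27, 6.46 and 7.61 CPM at the lowest, median and highest of the controls. The corresponding values were 2.43, 3.46 and 5.64 CPM in heterozygous and 2.51, 3.03 and 5.35 CPM in homozygous mice. Of the controls, 4 lay above every library of either IEC-*Ppara* group. The log2 fold change was -0.79 ± 0.25 in homozygous mice (adjusted p = 0.343) and -0.67 ± 0.25 in heterozygous mice (adjusted p = 0.728).

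The delta chain *Cd3d*, the other partner of the epsilon chain, was highest in 3 of the 4 B cell-rich libraries. It was 4.61 and 4.00 CPM in the B cell-rich controls 2 and 3 and 0.701 to 2.02 CPM in the other 4. Heterozygous mice had 0.333, 1.01 and 2.7 CPM at the lowest, median and highest, the highest being the B cell-rich library, and homozygous mice 0.684, 0.976 and 1.56 CPM. Homozygous 1, the B cell-rich library of that group, had 0.837 CPM and did not stand apart. With no filter its log2 fold change in homozygous mice was -1.25 ± 0.44 (adjusted p = 0.540) over all libraries and -0.51 ± 0.41 (adjusted p = 0.797) without the 4 B cell-rich libraries. In heterozygous mice it was -1.04 ± 0.43 (adjusted p = 0.652) and -0.77 ± 0.42 (adjusted p = 0.879). For *Cd3e* in homozygous mice the pair of values was -0.94 ± 0.24 and -0.86 ± 0.28.

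*Cd8a* encodes the CD8 alpha chain, found in both forms of the coreceptor. Controls ran from 3.43 CPM through a median of 7.30 to 8.20 CPM. Heterozygous mice ran from 2.57 through 3.99 to 5.21 CPM and homozygous mice from 2.61 through 3.60 to 5.19 CPM. The 5 controls other than control 4 lay above all 12 IEC-*Ppara* libraries. The log2 fold change was -0.80 ± 0.23 in homozygous mice (adjusted p = 0.209) and -0.70 ± 0.23 in heterozygous mice (adjusted p = 0.495).

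*Cd8b1*, the beta chain of the CD8 alpha beta form, was scarce in most libraries. It was 3.47 and 3.15 CPM in controls 2 and 3 and 2.42 CPM in heterozygous 2, and between 0.203 and 1.10 CPM in each of the other 15 libraries. Homozygous 1, the library with the fewest B cell reads of the 4 B cell-rich ones, had 0.558 CPM and did not stand apart. The log2 fold change in homozygous mice, with no filter, was -1.55 ± 0.56 (adjusted p = 0.540) over all libraries and -0.35 ± 0.42 (adjusted p = 0.912) without the B cell-rich libraries. In heterozygous mice it was -1.01 ± 0.55 and -0.57 ± 0.42. The 7 genes of a follicular helper T cell list summed to 22.6 to 75.8 CPM in the 4 B cell-rich libraries and to 15.2 to 35.7 CPM in the other 14, and the part of follicles in these values was not tested.

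**Figure D2:**
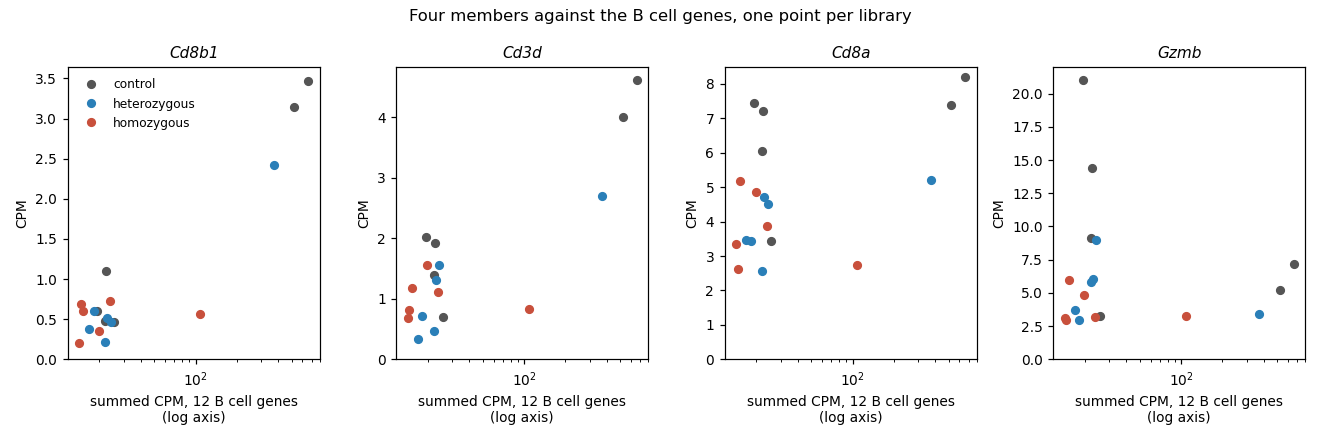
Level of *Cd8b1*, *Cd3d*, *Cd8a* and *Gzmb* in CPM against the summed CPM of 12 B cell genes on a log axis, 1 point per library, coloured by genotype. The 3 libraries with the most B cell reads hold the highest *Cd8b1* and *Cd3d*, while *Gzmb* is at 3.41 to 7.19 CPM in them and reaches 21.1 CPM in a library with few B cell reads.

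*Trdc*, the constant region of the delta receptor chain, marks gamma delta T cells, of which the gut epithelium holds many. Controls had 1.91, 2.57 and 4.33 CPM at the lowest, median and highest. Heterozygous mice had 0.858, 1.68 and 2.35 CPM and homozygous mice 0.625, 1.54 and 2.94 CPM. In each IEC-*Ppara* group 4 of 6 libraries lay below every control. With no filter the log2 fold change was -0.71 ± 0.33 in homozygous (adjusted p = 0.540) and -0.74 ± 0.33 in heterozygous mice (adjusted p = 0.652), and without the B cell-rich libraries it was -0.71 ± 0.40 and -0.92 ± 0.40.

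*Itgae* showed the smallest differences of the 10 over all libraries. Controls had 8.36, 15.3 and 19.3 CPM at the lowest, median and highest, heterozygous mice 8.81, 10.4 and 15.8 CPM, and homozygous mice 8.51, 10.0 and 12.6 CPM. No IEC-*Ppara* library lay below control 4, and 5 controls lay above every homozygous library. The log2 fold change was -0.53 ± 0.19 in homozygous mice (adjusted p = 0.454) and -0.34 ± 0.19 in heterozygous mice (adjusted p = 1.00).

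*Gzma*, granzyme A, was 5.97, 14.9 and 32 CPM at the lowest, median and highest control, and *Gzmb*, granzyme B, was 3.27, 8.15 and 21.1 CPM. Controls 5 and 6 were the highest for both and control 4 the lowest. In heterozygous mice *Gzma* was 4.42, 7.86 and 14.8 CPM and in homozygous mice 5.70, 6.87 and 13.4 CPM. *Gzmb* was 2.95, 4.74 and 9.01 CPM in heterozygous and 2.93, 3.22 and 5.94 CPM in homozygous mice, where its SD of 1.22 CPM compared with 6.61 CPM in controls. The groups overlapped for both genes, with 4 of 6 controls above every homozygous library and 3 of 6 above every heterozygous library.

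For *Gzmb* the log2 fold change was -1.38 ± 0.40 in homozygous mice (adjusted p = 0.233), the largest of the 7 genes past the filter, and -0.94 ± 0.39 in heterozygous mice (adjusted p = 0.838). For *Gzma* it was -1.04 ± 0.37 (adjusted p = 0.454) and -0.90 ± 0.37 (adjusted p = 0.814). Neither shrank without the B cell-rich libraries: in the fit with no filter *Gzmb* in homozygous mice went from -1.41 ± 0.37 to -1.60 ± 0.41, and *Gzma* from -1.07 ± 0.35 to -1.20 ± 0.40. The controls kept in that fit included 5 and 6, the highest for both genes, and the control mean of *Gzmb* rose from 10.0 to 12.0 CPM. Without control 6, the heterozygous values were -0.55 for *Gzmb* and -0.58 for *Gzma*. With 1 library left out, the homozygous values ran from -1.57 to -0.98 for *Gzmb* and from -1.25 to -0.71 for *Gzma*. In homozygous mice the estimates for the granzymes and for *Cd8b1* moved in opposite directions when the B cell-rich libraries were left out.

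*Ccl5* was 5.84, 11.9 and 18.7 CPM at the lowest, median and highest of the controls. It was 3.56, 6.57 and 8.89 CPM in heterozygous and 4.51, 6.85 and 11.8 CPM in homozygous mice. The groups overlapped, with 4 controls above every heterozygous and 3 above every homozygous library. The log2 fold change was -0.79 ± 0.30 in homozygous mice (adjusted p = 0.513) and -0.99 ± 0.30 in heterozygous mice (adjusted p = 0.386). It was the one gene past the filter with a larger difference in heterozygous than in homozygous mice.

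Homozygous and heterozygous mice were compared directly. None of the 10 genes was called by edgeR at the adjusted threshold, where 0% of all genes were called. At an unadjusted p under 0.05 stood 0 of 7 genes past the filter and 0 of 10 with no filter, against 7.43% and 7.77% of all genes, and DESeq2 called none of the 7 genes past the filter. Log2 fold changes of the 7 genes past the filter ran from -0.43 ± 0.39 for *Gzmb* to 0.20 ± 0.30 for *Ccl5*. Each was about its SE or smaller, so that a difference between copy numbers of the allele was not detectable at this spread. With 1 library left out, the value of *Gzmb* ran from -0.61 to -0.19. A comparison of both IEC-*Ppara* groups together with controls, chosen after the values were seen, gave log2 fold changes from -0.44 ± 0.16 for *Itgae* to -1.16 ± 0.33 for *Gzmb*, which was -0.77 without control 6. None of the 7 was called by edgeR (lowest adjusted p = 0.118, for *Cd8a*), where 0.0365% of all genes were called lower. DESeq2 called *Cd8a*, *Cd3e*, *Gzmb* and *Ccl5* lower there, with adjusted p from 0.0243 to 0.0497, and 0.233% of all genes. Without control 4, edgeR called *Cd8a* (adjusted p = 0.0169) and *Cd3e* (adjusted p = 0.0387) lower, and 0.109% of all genes.

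**Figure D3:**
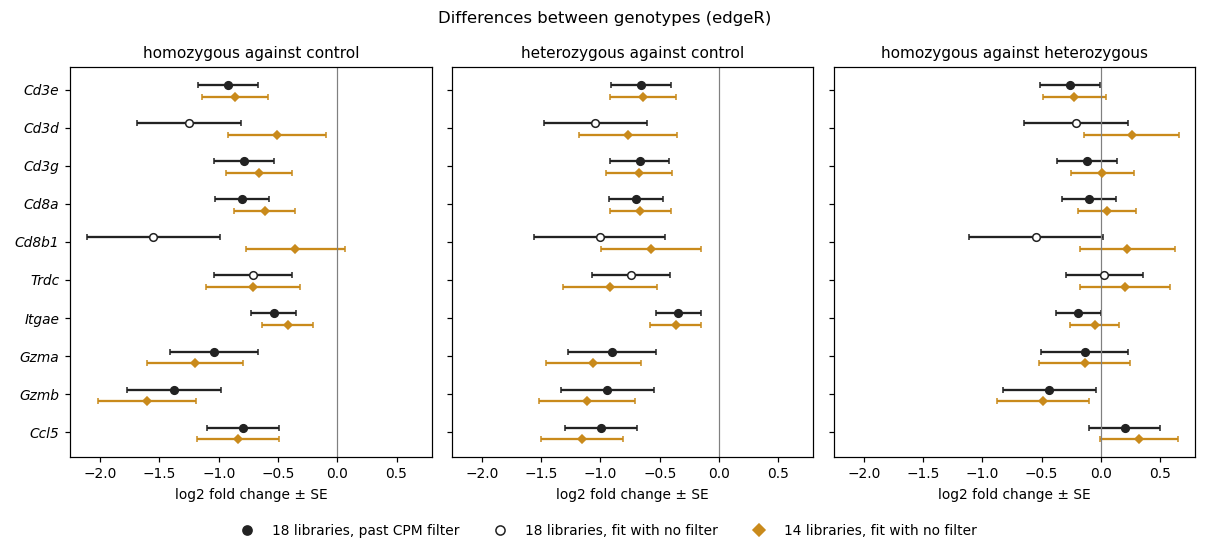
Log2 fold change ± SE (horizontal axis) of each gene in 3 comparisons of genotypes, from edgeR over all 18 libraries (circles; open where the gene was below the CPM filter) and over the 14 libraries that were not B cell-rich (diamonds). All 10 circles lie below 0 against controls, *Cd8b1* and *Cd3d* lie nearer 0 without the B cell-rich libraries, and *Gzmb* lies further from it.

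Ratios compared genes within a library. Most were between 2 T cell genes, while that of *Cd8a* to the epithelial gene *Cdh1* also follows the amount of T cell RNA. In all, 6 ratios were tested in 3 comparisons with a two-sided exact permutation test on log2 ratios, and p-values were adjusted over the 18 tests. No ratio passed (lowest adjusted p = 0.0779, shared by 5 tests). The ratio of *Gzma* to *Gzmb* had a median of 1.72 in controls, 1.64 in heterozygous and 2.12 in homozygous mice, and its range in homozygous mice was 1.94 to 2.25. The mean log2 ratio was 0.25 higher in homozygous than in control mice (exact p = 0.00866, adjusted p = 0.0779) and 0.28 higher than in heterozygous mice (exact p = 0.0411, adjusted p = 0.123).

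The ratio of *Itgae* to *Cd3e* was 2.35 to 2.85 in controls, a narrow range that included control 4. It was 2.69 to 5.30 in heterozygous and 2.26 to 4.39 in homozygous mice, and the mean log2 ratio was higher than in controls by 0.35 (exact p = 0.0173) and 0.37 (exact p = 0.0216), with an adjusted p of 0.0779 in each. Without heterozygous 3 the heterozygous difference was 0.22. *Cd8a* against *Cdh1*, the E-cadherin gene of the epithelium, differed from controls in mean log2 ratio by -0.75 in homozygous (exact p = 0.0108) and -0.75 in heterozygous mice (exact p = 0.0152), again with an adjusted p of 0.0779 in each.

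For the remaining 3 ratios the exact p was 0.141 or more. *Cd8b1* to *Cd8a* had medians of 0.144, 0.109 and 0.153 in control, heterozygous and homozygous mice, and the 3 libraries richest in B cell genes had 0.424, 0.426 and 0.465. *Trdc* to *Cd3e* had medians of 0.470, 0.419 and 0.565. *Cd4* to *Cd8a* had medians of 2.77, 3.75 and 2.84; *Cd4*, the coreceptor of helper T cells, is also carried by macrophages. For these 3 ratios the adjusted p ran from 0.362 to 0.959.

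**Figure D4:**
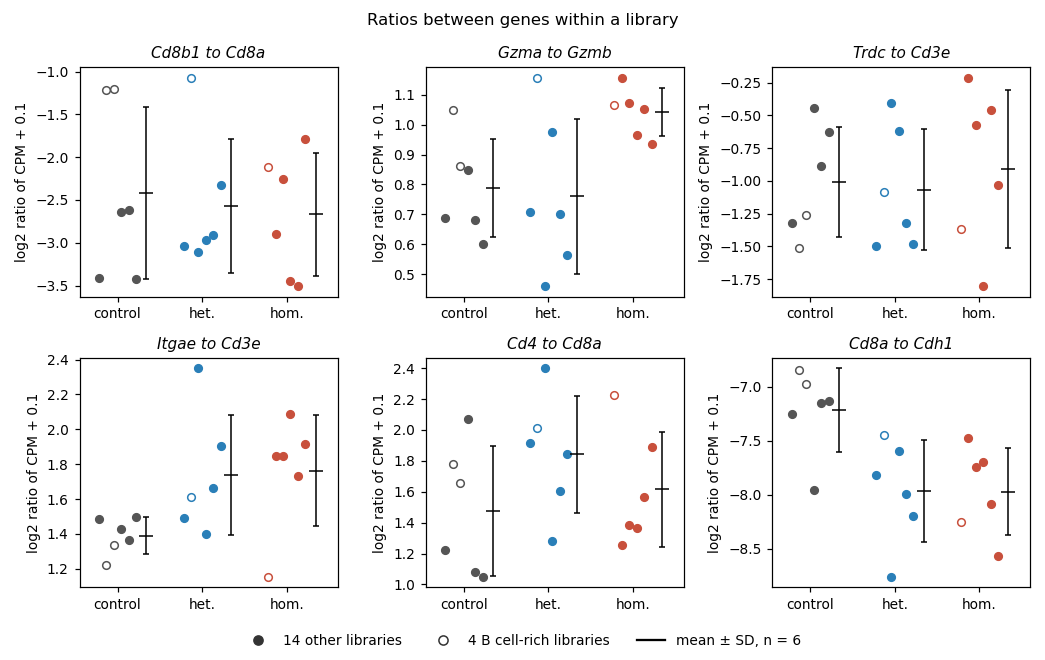
Log2 ratios of CPM + 0.1 between 2 genes of the same library (vertical axis) by genotype, with the mean ± SD of 6 libraries at the right of each group; open points are the 4 B cell-rich libraries. The 6 homozygous libraries lie close together and high for *Gzma* to *Gzmb*, the 6 controls lie close together for *Itgae* to *Cd3e*, and control 4 lies apart from the other controls for *Cd8a* to *Cdh1*.

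The genes varied together between mice. Over 18 libraries the log2 CPM of *Cd3e* had a Pearson r of 0.88 with *Cd3g* (Spearman rho = 0.88; permutation p adjusted over 13 relations = 0.00013), of 0.85 with *Itgae* (rho = 0.73, adjusted p = 0.00013) and of 0.84 with *Cd8a* (rho = 0.77, adjusted p = 0.00013). The lowest r was that with *Cd8b1* (0.65, rho = 0.46, adjusted p = 0.00458), followed by *Gzmb* (0.65, rho = 0.65, adjusted p = 0.00458). Without controls 2 and 6, the 2 libraries farthest from the median, these r were 0.83, 0.77, 0.76, 0.60 and 0.57. Part of each value is the difference between genotypes. Taken over the 6 libraries of a genotype, *Cd3e* and *Cd8a* had an r of 0.97 (controls), 0.92 (heterozygous) and -0.08 (homozygous), and *Cd3e* and *Itgae* 0.98, 0.78 and 0.24. The range of *Cd3e* in homozygous mice was the smallest of the 3 groups.

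Among the 14 libraries that were not B cell-rich, *Gzma* and *Gzmb* had an r of 0.86 and 0.84 with *Cd3e*, and *Cd8b1* had 0.38. The mean log2 CPM of the B cell list had an r of 0.05 with *Cd3e* among these 14. Over all 18 the r was 0.55 (rho = 0.36, adjusted p = 0.0206), where the B cell-rich libraries form a separate cluster. The smooth muscle list had an r of -0.12 (rho = -0.13, adjusted p = 0.682), the enterocyte list -0.34 (rho = -0.24, adjusted p = 0.193) and the macrophage and dendritic cell list 0.03 (rho = -0.01, adjusted p = 0.898) over 18 libraries.

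After the genotype means were subtracted, the 8 other genes most like *Cd3e* over 18 libraries, by Pearson r, were *H2-DMa* (0.82), *Padi2* (0.79), *Saal1* (0.79), *Trgc1* (0.78), *Ighv2-5* (0.77), *Cd74* (0.76), *Ccr9* (0.74) and *H2-Ab1* (0.74). *H2-DMa*, *Cd74* and *H2-Ab1* serve antigen presentation by MHC class II and are also abundant in B cells, *Trgc1* is a constant region of the gamma receptor chain, and *Ccr9* is a receptor that guides T cells to the small intestine. Mean levels of *H2-Ab1* were 390 ± 107 (SD, n = 6) CPM in controls, 252 ± 73.4 in heterozygous and 229 ± 32.9 in homozygous mice, with a log2 fold change of -0.76 in homozygous mice (adjusted p = 0.116). For *H2-DMa* it was -0.92 (adjusted p = 0.0721) and for *Cd74* -0.80 (adjusted p = 0.121). The others did not share one direction: *Ccr9* was at -0.66, *Padi2* at -0.45, *Trgc1* at -0.29, *Saal1* at 0.036 and *Ighv2-5* at 2.73. None of these was called (lowest adjusted p = 0.254), and *Ighv2-5* varied widely in homozygous mice (12.4 ± 25.2 CPM). The 8 genes were picked as the highest r among all tested genes, and whether chance gives such r was not tested. Without the 4 B cell-rich libraries, a check chosen after the values were seen, the r of *H2-DMa*, *Cd74* and *H2-Ab1* with *Cd3e* was 0.75, 0.66 and 0.65, and their log2 fold changes were -0.82, -0.66 and -0.61, none called (lowest adjusted p = 0.377). Of the members past the filter, *Cd3g* (0.79) and *Itgae* (0.78) had the highest r measured this way and *Gzmb* (0.42) the lowest.

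Other T cell genes were taken from lists. Of 27 genes of T cell receptor chains and proximal signalling, 18 passed the filter and none was called in any comparison. Their log2 fold change was below 0 for 17 of 18 in homozygous and 18 of 18 in heterozygous mice, with medians of -0.64 and -0.53. At an unadjusted p under 0.05 stood 9 and 6 of the 18, all lower, against 3.37% and 2.18% of all genes past the filter. With no filter, all 27 genes had medians of -0.80 and -0.70, and 17 and 9 of 27 had an unadjusted p under 0.05 and were lower, against 4.12% and 3.05% of all genes. Without the B cell-rich libraries the medians were -0.25 and -0.37, and the counts 3 and 8 of 27, against 2.13% and 1.95%. Among the 18 genes past the filter, *Cd6*, a receptor on T cells, had the largest difference in homozygous mice (-1.40 ± 0.49, adjusted p = 0.435). Next among these 18 were *Trbc1* (-1.15 ± 0.38, adjusted p = 0.364), a constant region of the beta receptor chain, and *Lat* (-1.12 ± 0.48, adjusted p = 0.594), an adaptor of receptor signalling.

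Of 32 cytotoxic and tissue-resident lymphocyte genes, 14 passed the filter and none was called. The medians were -0.42 in homozygous and -0.20 in heterozygous mice, and 10 and 11 of 14 were below 0. At an unadjusted p under 0.05 stood 8 of 14 lower in homozygous mice, against 3.37% of all genes past the filter, and 4 of 14 lower in heterozygous mice, against 2.18%. The one gene higher at that threshold, in homozygous mice, was *Itga1* (0.33 ± 0.16), an integrin chain, named after its value was seen. With no filter the lower counts were 11 and 8 of 32, against 4.12% and 3.05%, and without the B cell-rich libraries 5 and 7 of 32, against 2.13% and 1.95%. Among the 14 genes past the filter, *Itgb7*, which pairs with the product of *Itgae*, had the largest difference in homozygous mice (-0.72 ± 0.31, adjusted p = 0.593). Next among these 14 were *Ccr9* (-0.66 ± 0.20, adjusted p = 0.254) and *Runx3* (-0.64 ± 0.26, adjusted p = 0.562), a regulator of CD8 T cells. With no filter, 1 of the 32 was called: *Klrd1*, a lectin receptor of natural killer and cytotoxic T cells, lower in heterozygous mice with a log2 fold change of -1.16 ± 0.23 (adjusted p = 0.0435), with -0.68 ± 0.23 in homozygous mice (adjusted p = 0.540). In that fit 0.00258% of all genes were called lower in heterozygous mice, which is *Klrd1* alone. Without the 4 B cell-rich libraries the call was lost, with a log2 fold change of -1.24 ± 0.27 (adjusted p = 0.166). *Klrd1* did not pass the filter on low levels. For both IEC-*Ppara* groups together, a comparison chosen after the values were seen, it was also called with no filter (-0.92 ± 0.19, adjusted p = 0.0490). That call was lost too without the B cell-rich libraries (-0.90 ± 0.23, adjusted p = 0.339).

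Of 15 genes through which the epithelium and vessels keep or attract these lymphocytes, 14 passed the filter and none was called. The medians were -0.14 in homozygous and -0.01 in heterozygous mice, with 12 and 7 of 14 below 0. At an unadjusted p under 0.05 stood 2 of 14 in homozygous mice, both lower, against 3.37% of all genes, and 0 of 14 were lower in heterozygous mice, against 2.18%. They were *H2-T3* (-0.19 ± 0.07), a ligand of the CD8 alpha pair, and *Ccl25* (-0.20 ± 0.09), which encodes the ligand of the *Ccr9* product. These 2 genes, and *Cdh1*, the ligand of CD103, with a log2 fold change of -0.02, were chosen after their values were seen. With no filter the lower counts were 2 of 15 in homozygous and 0 of 15 in heterozygous mice, against 4.12% and 3.05% of all genes. Without the B cell-rich libraries they were 4 and 1 of 15, against 2.13% and 1.95%. Among the 14 genes past the filter, *Madcam1*, an address molecule of gut vessels, had the largest difference in homozygous mice (-0.74 ± 0.47, adjusted p = 0.741). Next among these 14 were *Il18* (-0.40 ± 0.30, adjusted p = 0.785) and *Il7* (0.22 ± 0.16, adjusted p = 0.776), both cytokines.

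Markers of other cells moved as follows between homozygous and control mice. All 12 B cell genes were below 0, with a median of -2.94 and none called (lowest adjusted p = 0.466); *Pax5*, *Cr2* and *Ms4a1* had the largest differences, at -3.39, -3.25 and -3.22. With no filter the median of these 12 was -2.96 over all libraries and -0.28 without the B cell-rich libraries, where 10 of 12 were below 0. Of 7 follicular helper T cell genes, 3 passed the filter, with *Cxcr5* at -3.01, *Tox2* at -0.29 and *Bcl6* at -0.17, none called. With no filter the median of the 7 was -1.17, and without the B cell-rich libraries it was 0.12, with 2 of 7 below 0. The 3 tested genes of innate lymphoid and natural killer cells had a median of -0.0019, the 4 of plasma cells -0.26, and the 11 of macrophages and dendritic cells 0.03, with none called. The 10 smooth muscle genes were all above 0, with a median of 0.58 and none called. Of 10 enterocyte genes, with a median of 0.07, *Fabp2*, a fatty acid binding protein, was called, at 0.95 ± 0.14 (adjusted p = 0.00105). None of 6 mast cell genes passed the filter, and their sum was 0.861 to 5.97 CPM. No listed gene was at 0 in every library. In heterozygous mice against controls, all 12 B cell genes were also below 0, with a median of -1.50. The 10 smooth muscle genes were all below 0 there, with a median of -0.18, opposite in sign to homozygous mice. None of either list was called in heterozygous mice. With the mean log2 CPM of the B cell list as a covariate, the log2 fold change in homozygous mice was -0.78 ± 0.25 for *Cd3e*, -0.73 ± 0.24 for *Cd8a* and -1.58 ± 0.38 for *Gzmb*. With that of the smooth muscle list it was -0.92 ± 0.28, -0.80 ± 0.25 and -1.07 ± 0.39. None of the 7 genes past the filter was called in either fit.

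**Figure D5:**
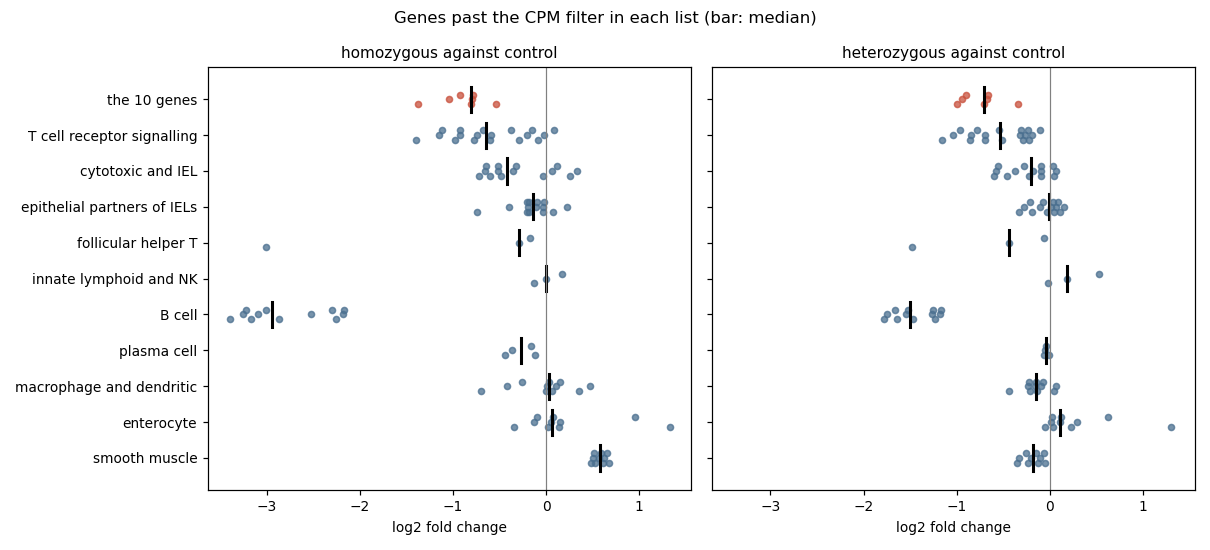
Log2 fold change (horizontal axis) of each gene past the CPM filter, by list, in homozygous and heterozygous mice against controls; 1 point per gene, with a bar at the median of the list. The 7 tested genes of the 10 and most T cell receptor genes lie below 0, epithelial partners have medians of -0.14 and -0.01, and B cell genes lie furthest below 0.

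Male and female mice were compared with genotype in the fit. None of the 10 genes was called (0.0729% of all genes past the filter were), and 1 of 10 had an unadjusted p under 0.05 with no filter, against 3.86% of all genes. That gene was *Trdc*, with a log2 fold change of -0.60 ± 0.24 in males (adjusted p = 0.896). Its mean was 2.82 CPM in 3 females and 2.77 in 3 males of the controls. It was 2.08 in 2 females and 1.44 in 4 males of the heterozygous mice, and 2.74 in 2 females and 1.20 in 4 males of the homozygous mice. For *Cd3e* the means of females and males were 4.91 and 6.61 CPM in controls, 5.20 and 2.75 in heterozygous and 3.47 and 2.78 in homozygous mice. *Cd3g*, *Cd8a*, *Itgae* and *Ccl5* ran the same way, while *Gzma* and *Gzmb* had lower means in males of every genotype. The fit averages over genotypes, and a sex difference that depends on genotype was not tested. With sex as a covariate the differences between genotypes changed no call among the 7 genes past the filter. The comparison of sexes depended on control 4, a female. Without it, 3 of these 7 genes were lower in males at an unadjusted p under 0.05, against 0 of 7 over all libraries, and none was called.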

How the data were processed

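The members and the gene lists were chosen with earlier results of these data known. The authors selected poly-A RNA, sequenced paired ends, aligned them with STAR (2.7.9a1, as written in the submitters' processing notes) to GRCm38 with Ensembl annotation, and counted uniquely aligned, unambiguous reads per gene with featureCounts (2.0.32, likewise). Whether strand was used is not given in the sources used here. The counts, CPM and FPKM per gene and the log2 CPM were deposited; CPM scales a count to the library total and FPKM also divides by exonic length.

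Counts were tested with edgeR (4.0.16) quasi-likelihood fits over all 18 libraries with genotype as the term, TMM scaling, all gene biotypes, more than 3 CPM in at least 4 libraries, and Benjamini-Hochberg adjustment over all genes (threshold 0.05). Genes named from a list were among those called or the 3 past the filter with the largest difference between homozygous and control mice. Besides them the 8 genes most like *Cd3e* were named, and *Cd4* for a ratio. *Itga1*, *H2-T3*, *Ccl25* and *Cdh1* were named after their values were seen. Ratios used CPM + 0.1 and an exact permutation test of 6 against 6 (smallest p 0.00216). Relations were computed on edgeR's log2 CPM (prior count 2) with 100000 permutations. Alternatives were DESeq2 (1.42.0), limma (3.58.1) as voom and as trend on the deposited log2 CPM, other scalings and filters, covariates, and libraries left out; the pooled IEC-*Ppara* comparison and the unfiltered fit without the B cell-rich libraries were chosen after seeing the data. Mice are separate animals of each genotype. Tested on simulated data of 13709 genes, the fit found 92 of 100 genes changed 2-fold between homozygous and control mice. It found 85 of 100 between heterozygous and control mice and 84 of 100 between homozygous and heterozygous mice. False calls numbered 10, 5 and 7 in these 3 comparisons in turn. The changed genes were drawn at random from all 13709, and each gene varied independently around 1 mean. The simulated libraries held no B cell-rich group and no control low in many genes together. These counts are therefore not the chance of calling a 2-fold change in the 10 genes. Promoter windows came from RefSeq (GRCm38.p6).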

Additional observations from a re-analysis of the deposited data

Results flagged for a closer look

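*Cd8b1* in heterozygous 2 was 2.42 CPM, where the next heterozygous library had 0.606 CPM; the gap is 0.821 of the range of the group, beyond Dixon's 95% limit for 6 samples. This is one of the 4 B cell-rich libraries. The log2 ratio of *Cd8a* to *Cdh1* in control 4 was -7.95, where the next control had -7.26, a gap of 0.628 of the range. Control 4 was also the lowest control for 9 of the 10 genes. In all, 48 groups of values were examined, and chance alone puts about 1 in 20 groups beyond the limit.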

How the results depend on the processing

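The log2 fold changes of the 10 genes between IEC-*Ppara* and control mice kept their sign under every alternative that gave a value. Most alternatives held only the 7 genes past the filter. *Cd3d*, *Cd8b1* and *Trdc* had values only in the fits with no filter, with and without the B cell-rich libraries, and *Cd3d* and *Trdc* also with at least 10 counts in every library. In homozygous mice the log2 fold change ran from -1.07 to -0.78 for *Cd3e*, from -0.95 to -0.61 for *Cd8a* and from -1.60 to -0.98 for *Gzmb*, with adjusted p from 0.0371 to 0.764, from 0.0425 to 0.863 and from 0.0338 to 0.614. Of the 7 genes past the filter, 2 were called with DESeq2 between homozygous mice and controls and 4 between both IEC-*Ppara* groups and controls, and leaving out 1 library gave 0 to 1 and 0 to 2, the calls being those without control 4. Calls over all genes, 62 between homozygous and control mice, were 148 with DESeq2 and 34 without the B cell-rich libraries. Between heterozygous and control mice 42 calls became 86 with DESeq2, 25 with only the libraries compared and 18 without the B cell-rich libraries. Between homozygous and heterozygous mice 0 calls became 12 with DESeq2, 1 with library size alone, 1 with limma trend, 2 with no filter and without the B cell-rich libraries, and 0 to 4 when a library was left out (1 without control 2, 4 without homozygous 1). Between sexes 10 calls became 6 with at least 10 counts in every library and 17 with no filter. For both IEC-*Ppara* groups together 77 calls became 152 with DESeq2, 35 without the B cell-rich libraries, 45 with no filter as well, and 48 to 100 when a library was left out, the lowest without control 3. Replicate numbers did not pair the mice (same-numbered deviations correlated from -0.45 to 0.52 and the sexes differ). A replicate block gave 51, 26, 0, 9 and 50 calls in these 5 comparisons in turn and no call among the 7 genes past the filter; the male against female value of *Cd3g* changed sign to 0.0409.

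The other changes of sign were in values that passed no test in either form. Between homozygous and heterozygous mice, without the B cell-rich libraries, *Cd3g* was 0.0146 (0.0142 with no filter) and *Cd8a* 0.0532 (0.0518 with no filter), and with no filter as well *Cd3d* was 0.26 and *Cd8b1* 0.22; *Gzma* was 0.0364 with the smooth muscle covariate. Leaving out 1 library moved *Ccl5* there from -0.0233 to 0.32, *Cd3g* from -0.31 to 0.0301 and *Gzma* from -0.35 to 0.0805, and *Cd8a* between sexes from -0.24 to 0.0105. The log2 ratio of *Cd8b1* to *Cd8a* changed sign to 0.0843 (homozygous) and 0.14 (heterozygous against control) with CPM + 1, and without the B cell-rich libraries to 0.24, 0.15 and, between IEC-*Ppara* groups, 0.0864; without 1 library it ran from -0.45 to 0.0924 for heterozygous against control and from -0.28 to 0.20 between IEC-*Ppara* groups. *Trdc* to *Cd3e* in heterozygous mice was 0.0542 with CPM + 1 and -0.19 to 0.0540 without 1 library, and in homozygous mice -0.0383 to 0.28. *Cd8a* to *Cdh1* between IEC-*Ppara* groups was 0.0152 with CPM + 1, 0.16 without the B cell-rich libraries and -0.16 to 0.12 without 1 library. *Itgae* to *Cd3e* between IEC-*Ppara* groups ran from -0.0406 to 0.15, and *Gzma* to *Gzmb* in heterozygous mice from -0.11 to 0.0324. Ratios passed an adjusted p of 0.05 in 6 fits that left out 1 library: *Gzma* to *Gzmb* in homozygous mice without control 2 (0.30) and against heterozygous mice without heterozygous 2 (0.36), *Itgae* to *Cd3e* in homozygous mice without homozygous 1 (0.50), and *Cd8a* to *Cdh1* without control 4 (-0.90 in homozygous and -0.90 in heterozygous mice) and without heterozygous 2 (-0.86). The causes were not tested. Genes with few reads, such as *Cd8b1* with 8 in homozygous 5, carry wide counting error.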
